A study of Mus musculus with 8 samples.

Results

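The cholesterol genes described here encode the enzymes that build cholesterol from acetyl-CoA, the proteins that sense sterols and the proteins that move or esterify cholesterol. They were taken by symbol from the deposited array table, using a list of 28 genes. Of these, 26 had a transcript cluster (the array's unit for 1 gene) of their own, and all 26 were among the 12696 of 21160 genes with a mean high enough to be tested. The other two share a cluster with another gene and were not counted as members. The cluster of Tm7sf2, a late sterol reductase, is shared with Vps51, and the cluster of Srebf1, a sterol-responsive transcription factor, is shared with Mir6922.

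RNA of CD8+ T cells of female mice was measured on 8 Clariom S Mouse arrays, 1 per sample. The design text describes naive cells that were stimulated in culture and kept for 48 h with an agonist of 1 PPAR isoform, and the labels give day 2 for all samples. The 4 groups were the PPARα agonist, the PPARβ agonist, the PPARγ agonist and DMSO, with 2 arrays each, and all of them shared the stimulation. Every group had 1 array in each of 2 culture sets, a name used here for the 4 samples whose titles begin alike. What that beginning marks, the compounds, their doses, the stimulus and the mouse strain are not stated in the sources used here. No label states that both arrays of a treatment stem from different mice or cultures. The p-values therefore reflect the spread among these 8 arrays alone, and that spread may be technical.

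Cells make cholesterol by joining acetyl-CoA units into mevalonate, turning mevalonate into isoprenoid diphosphates, joining these into squalene, folding squalene into lanosterol and then trimming lanosterol to cholesterol. The pathway is switched on by SREBP transcription factors, which SCAP carries out of the endoplasmic reticulum when sterols are low and which INSIG proteins hold back when sterols are high. T cells that leave the resting state raise this pathway to make membrane for division. PPARs are fatty acid-binding nuclear receptors, best known for switching on genes of fatty acid use and storage.

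The promoters of 4 members are shown. Hsd17b7, Insig1 and Msmo1 were chosen because they had the largest differences between the culture sets described below. Hmgcs1 was chosen because it holds TCACNCCAC in full, the form searched for of the sterol regulatory element, which SREBPs bind. Only this form and its shortened versions were searched for this element, so a window without a match may still hold a site for SREBPs. Sequences are from RefSeq on build GRCm38.p6 and run from 250 bases before the gene start to 50 bases after it. Hsd17b7 is at chr1:169969156-169969455 on the minus strand, Insig1 at chr5:28071162-28071461 on the plus strand, Msmo1 at chr8:64733529-64733828 on the minus strand and Hmgcs1 at chr13:119690101-119690400 on the plus strand. Capitals mark the letters TCACNCCAC, the same letters without the first or the last base, and CCAAT boxes, on either strand.
Hsd17b7: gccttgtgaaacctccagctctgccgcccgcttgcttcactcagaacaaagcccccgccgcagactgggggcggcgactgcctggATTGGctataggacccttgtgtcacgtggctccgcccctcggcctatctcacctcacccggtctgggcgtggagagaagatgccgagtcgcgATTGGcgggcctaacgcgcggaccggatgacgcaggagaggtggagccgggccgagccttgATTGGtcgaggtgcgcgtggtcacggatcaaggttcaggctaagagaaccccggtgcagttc
Insig1: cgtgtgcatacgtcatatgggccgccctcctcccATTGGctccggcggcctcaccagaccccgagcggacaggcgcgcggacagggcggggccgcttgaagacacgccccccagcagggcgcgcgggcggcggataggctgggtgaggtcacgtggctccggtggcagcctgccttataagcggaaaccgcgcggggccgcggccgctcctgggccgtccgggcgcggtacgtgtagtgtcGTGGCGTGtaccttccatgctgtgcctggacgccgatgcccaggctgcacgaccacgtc
Msmo1: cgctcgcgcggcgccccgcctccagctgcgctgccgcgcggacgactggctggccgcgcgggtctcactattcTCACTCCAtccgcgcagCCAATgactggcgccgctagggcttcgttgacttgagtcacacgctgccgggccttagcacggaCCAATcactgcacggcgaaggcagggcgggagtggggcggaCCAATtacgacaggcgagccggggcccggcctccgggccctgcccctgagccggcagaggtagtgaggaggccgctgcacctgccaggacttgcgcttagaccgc
Hmgcs1: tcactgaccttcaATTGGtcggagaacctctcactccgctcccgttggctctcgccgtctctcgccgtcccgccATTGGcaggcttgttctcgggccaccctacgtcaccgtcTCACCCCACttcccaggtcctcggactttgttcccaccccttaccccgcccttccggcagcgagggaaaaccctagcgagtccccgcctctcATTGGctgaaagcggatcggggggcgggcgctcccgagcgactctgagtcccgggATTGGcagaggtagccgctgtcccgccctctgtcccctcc

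Windows were found for 21 of the 26 members, 27 windows in all, and 32851 windows over all genes. No window was used for Fdft1, Fdps, Npc1, Sqle and Stard4. The full element TCACNCCAC occurred in 1 member window (3.7%), that of Hmgcs1 with its first base at position -137 from the gene start, against 1.24% of all windows. TCACNCCA, which overlaps the full form, occurred in 3 member windows (11.1%, against 4.36% of all), those of Hmgcs1, Msmo1 and Srebf2. CACNCCAC, which also overlaps it, occurred in 3 (11.1%, against 6.24%), those of Acat2, Hmgcs1 and Insig1, and in Insig1 it lies on the opposite strand at position -9. The CCAAT box, bound by the factor NF-Y, occurred in 19 of the 27 member windows (70.4%, against 37.4% of all). The GC box GGGCGG, bound by Sp factors, occurred in 22 (81.5%, against 35.7%), and the PPAR direct repeat, 2 copies of AGGTCA with 1 base between, in 0 (0.0396% of all). Both strands were searched, and a match describes the letters only. The share over all windows was not limited to genes tested on the arrays, whereas every member was tested. No share over the tested genes was computed.

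Values below are log2 RMA values of single arrays, which compare 1 gene between arrays and not 1 gene with another. A difference of 1 doubles the signal, if the deposited values are plain log2 units, and gene coordinates are on build mm10. The array medians lay between 5.64 and 5.72. All 6 CD8 T cell markers with a cluster of their own were measured, and Cd8a averaged 16.57 in culture set 1 and 16.67 in culture set 2. Of the markers of other cells, 3 of 4 CD4 T cell, 1 of 4 NK cell, 1 of 5 B cell, 3 of 8 monocyte, macrophage and dendritic cell and 2 of 5 neutrophil markers were tested, and the highest of them were Eomes (10.69 in set 1 and 10.24 in set 2), Cd79b (9.73 and 9.43), Cd4 (8.81 and 7.99) and Cd68 (8.09 in set 1, a difference of 0.09). The 26 cholesterol genes ranged from a mean of 6.51 (Mvk) to 15.40 (Hmgcs1).

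The cholesterol genes varied more with the culture set than with the treatment. Culture set took 79.8% of the variance of the 26 members, treatment 12.9% and the rest 7.33%, against 45.5%, 28.6% and 25.9% over all genes tested. These shares sum over genes, so genes that vary widely weigh most. The median shares of single members were 71.9% for culture set and 16.3% for treatment, against 26.4% and 29.9% over all genes tested. Most enzymes of the squalene and lanosterol steps, Hmgcs1, Idi1 and the sterol sensor gene Insig1 were higher in set 1, while the genes of lysosomal cholesterol export, Npc1 and Npc2, were lower there. No member passed the test for any agonist. Group means of unchanged treatments also take a share of variance, so 12.9% does not measure an effect of treatment.

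**Figure D1:**
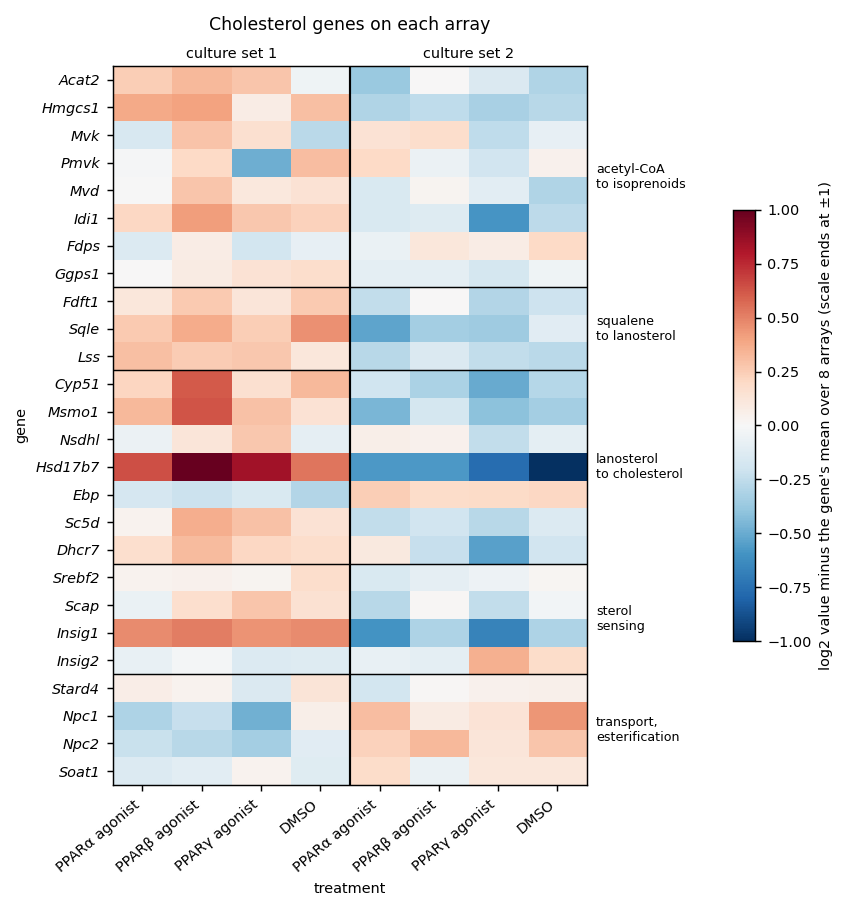
Each row is a cholesterol gene and each column an array, and colour gives the log2 RMA value minus that gene's mean over the 8 arrays, with the scale ending at 1 on either side. The left block of 4 arrays is culture set 1, where Hsd17b7, Insig1, Sqle and Msmo1 are above their means on all 4 arrays, and the right block is culture set 2, where they are below them.

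The culture sets were compared to describe how the genes vary between samples. Treatment was in the fit, since each set holds 1 array of every treatment. Only 1 culture set stands on each side, so the SEs and p-values measure scatter among the arrays of these 2 sets. They do not measure how culture sets vary. limma called 14 of the 26 members (adjusted p under 0.05, Benjamini-Hochberg over all genes tested), against 17.0% of the 12696 genes. Of these, 11 were higher in set 1 (9.74% of all genes) and 3 were lower (7.25%). The median difference, set 1 minus set 2, was 0.26 over the members and -0.00 over all genes. All 14 differed the same way in all 4 treatments. In RNA of whole samples, more cells with a transcript and more RNA per cell cannot be told apart.

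The late sterol enzymes, which turn lanosterol into cholesterol, had 4 of 7 members called higher in set 1 and 1 called lower. Hsd17b7 (chromosome 1, 169949535 to 169969241), a ketosteroid reductase that helps to remove methyl groups from the sterol ring, stood in set 1 at 11.39, 11.75 and 11.58 with PPARα, PPARβ and PPARγ agonist and at 11.28 with DMSO. Its values in set 2 were 10.17, 10.17 and 9.98 with the agonists and 9.63 with DMSO. Each array of set 1 was therefore above each array of set 2. The means of 11.50 and 9.99 differed by 1.51 (SE 0.109, limma adjusted p = 8.99e-04), or 2.85-fold, the largest difference among the 26 members.

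Msmo1 (chromosome 8, 64718139 to 64733792), the oxidase that opens that demethylation, stood at 9.70, 10.01 and 9.67 with the agonists and 9.52 with DMSO in set 1, and at 8.92, 9.20, 8.97 and 9.04 in the same order in set 2. The sets did not overlap, and the difference was 0.70 (SE 0.102, limma adjusted p = 0.00635). Cyp51 (chromosome 5, 4080674 to 4104746), the lanosterol demethylase, had 13.72, 14.12, 13.67 and 13.83 in set 1 and 13.31, 13.19, 13.00 and 13.22 in set 2, with no overlap. It differed by 0.65 (SE 0.113, limma adjusted p = 0.0106). Sc5d (chromosome 9, 42251595 to 42264300), a sterol desaturase, had 14.38, 14.71, 14.64 and 14.49 in set 1 and 14.10, 14.15, 14.07 and 14.21 in set 2, again without overlap, a difference of 0.42 (limma adjusted p = 0.034).

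Ebp (chromosome X, 8185329 to 8193512), the isomerase that moves a double bond in the sterol ring, went the other way from its neighbours in the pathway. Its values with the PPARα, PPARβ and PPARγ agonist were 12.13, 12.08 and 12.14 in set 1 and 12.54, 12.48 and 12.49 in set 2. With DMSO the set 1 array stood at a difference of -0.50 from the set 2 array, which had 12.50. All arrays of set 1 were below all arrays of set 2, by 0.42 on average (difference -0.42, SE 0.0919, limma adjusted p = 0.0238). Of the remaining late enzymes, the reductase gene Dhcr7 had a difference of 0.44 with no overlap but an adjusted p of 0.057 in limma, and Nsdhl had 0.12 (limma adjusted p = 0.544).

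All 3 genes that lead from farnesyl diphosphate to lanosterol were higher in set 1. Sqle (chromosome 15, 59315077 to 59331193), the squalene epoxidase and a slow step of the pathway, had 10.64, 10.75 and 10.62 with PPARα, PPARβ and PPARγ agonist and 10.83 with DMSO in set 1. In set 2 it had 9.85, 10.04 and 10.02 with the agonists and 10.26 with DMSO, below every array of set 1, and the difference was 0.66 (SE 0.0955, limma adjusted p = 0.0061). Lss (chromosome 10, 76531588 to 76557138), which folds the epoxide into lanosterol, had 13.52, 13.47, 13.49 and 13.33 in set 1 and 12.94, 13.07, 12.97 and 12.95 in set 2. It differed by 0.47 with no overlap (SE 0.0945, limma adjusted p = 0.0166). Fdft1, the squalene synthase gene, ranged from 12.31 to 12.46 in set 1 and from 11.91 to 12.20 in set 2, a difference of 0.38 (limma adjusted p = 0.0357).

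Among the 8 enzymes from acetyl-CoA to the isoprenoid diphosphates, 3 were higher in set 1 and 5 were not called. Hmgcs1 (chromosome 13, 119690446 to 119708086), the synthase that makes HMG-CoA, had 15.78, 15.80 and 15.47 with the agonists and 15.70 with DMSO in set 1, and 15.10, 15.14, 15.07 and 15.12 in the same order in set 2. The sets were apart on all arrays, by 0.58 (SE 0.0983, limma adjusted p = 0.00994). Idi1 (chromosome 13, 8885501 to 8892451), which isomerises isopentenyl diphosphate, had 13.23, 13.44, 13.29 and 13.25 in set 1 and 12.87, 12.89, 12.43 and 12.76 in set 2, a difference of 0.57 with no overlap (SE 0.112, limma adjusted p = 0.016). Acat2 (chromosome 17, 12942890 to 12960747), the thiolase of the opening step, had 12.03, 12.11, 12.06 and 11.74 in set 1 and 11.41, 11.79, 11.64 and 11.48 in set 2. The difference was 0.41 (SE 0.103, limma adjusted p = 0.0373), and the DMSO array of set 1 was below the PPARβ agonist array of set 2. The 5 enzymes not called showed smaller differences, 0.26 for Mvd (limma adjusted p = 0.112), 0.20 for Ggps1, 0.00 for Mvk, 0.00 for Pmvk and -0.16 for Fdps.

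Of the 4 sensing genes only Insig1 was called. Insig1 (chromosome 5, 28071363 to 28078662), which holds SCAP back and is itself a target of SREBPs, was nearly level in set 1, at 12.67, 12.71 and 12.65 with PPARα, PPARβ and PPARγ agonist and 12.67 with DMSO. Set 2 held 11.60, 11.89 and 11.53 with the agonists and 11.89 with DMSO. All arrays of set 1 were higher, by 0.95 (SE 0.105, limma adjusted p = 0.00294), or 1.93-fold. Srebf2 (chromosome 15, 82147266 to 82205376), which encodes the SREBP that drives cholesterol synthesis, had 15.26, 15.27, 15.25 and 15.40 in set 1 and 15.07, 15.13, 15.17 and 15.24 in set 2, a difference of 0.14 that was not called (limma adjusted p = 0.326). Scap differed by 0.27 (limma adjusted p = 0.128) and Insig2 by -0.18 (limma adjusted p = 0.36).

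The 4 genes of sterol transport and esterification included no gene called higher in set 1. Npc1 (chromosome 18, 12189693 to 12236400), the membrane protein that exports cholesterol from lysosomes, had 9.96, 10.04 and 9.79 with the agonists and 10.33 with DMSO in set 1, and 10.58, 10.35, 10.41 and 10.71 in the same order in set 2. Its partner Npc2 (chromosome 12, 84754559 to 84773112), the soluble sterol carrier of the lysosome, had 12.24, 12.19, 12.13 and 12.35 in set 1 and 12.70, 12.79, 12.59 and 12.74 in set 2. Both were lower in set 1 without overlap, Npc1 by a difference of -0.48 (SE 0.103, limma adjusted p = 0.0211) and Npc2 by -0.48 (SE 0.094, limma adjusted p = 0.0158). Soat1 (chromosome 1, 156428108 to 156474328), which esterifies cholesterol for storage, had 13.88, 13.91, 14.05 and 13.90 in set 1 and 14.20, 13.95, 14.13 and 14.13 in set 2, and was not called (difference -0.17, limma adjusted p = 0.283). Stard4, a sterol carrier of the cytosol, differed by 0.04.

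**Figure D2:**
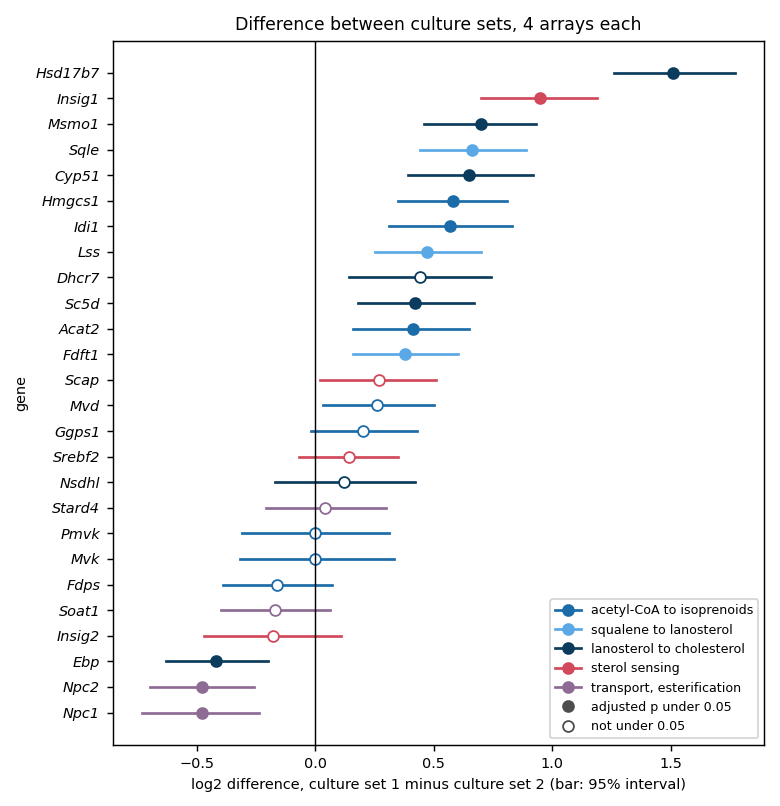
Points give the log2 difference of each cholesterol gene, culture set 1 minus culture set 2, over 4 arrays each, with bars for the 95% interval and colours for the step. Hsd17b7 is farthest to the right at 1.51 and Npc1 and Npc2 farthest to the left at -0.48, and filled points mark the 14 genes called.

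The sets did not overlap on any array for 16 of the 26 members, 13 with set 1 above and 3 with set 1 below, against 25.1% of all genes (13.4% above, 11.7% below). Ggps1, Dhcr7 and Srebf2 were apart but not called. Leaving out any 1 array also removes its partner from the set comparison, and 7 members were then called without a DMSO, PPARα agonist or PPARγ agonist array and 9 without a PPARβ agonist array, while 8.29% to 10.5% of genes were called. Leaving out either array of a treatment gave the same calls, so these fits differ only by the treatment that lost its pair. Hmgcs1, Sqle, Cyp51, Msmo1, Hsd17b7 and Insig1 were called whichever treatment that was. Acat2, Fdft1, Ebp and Sc5d were called in none of these fits. Lss and Npc1 were called only without a PPARβ agonist array. Idi1 was called only without a PPARα or PPARβ agonist array, and Npc2 only without a DMSO or PPARγ agonist array.

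**Figure D3:**
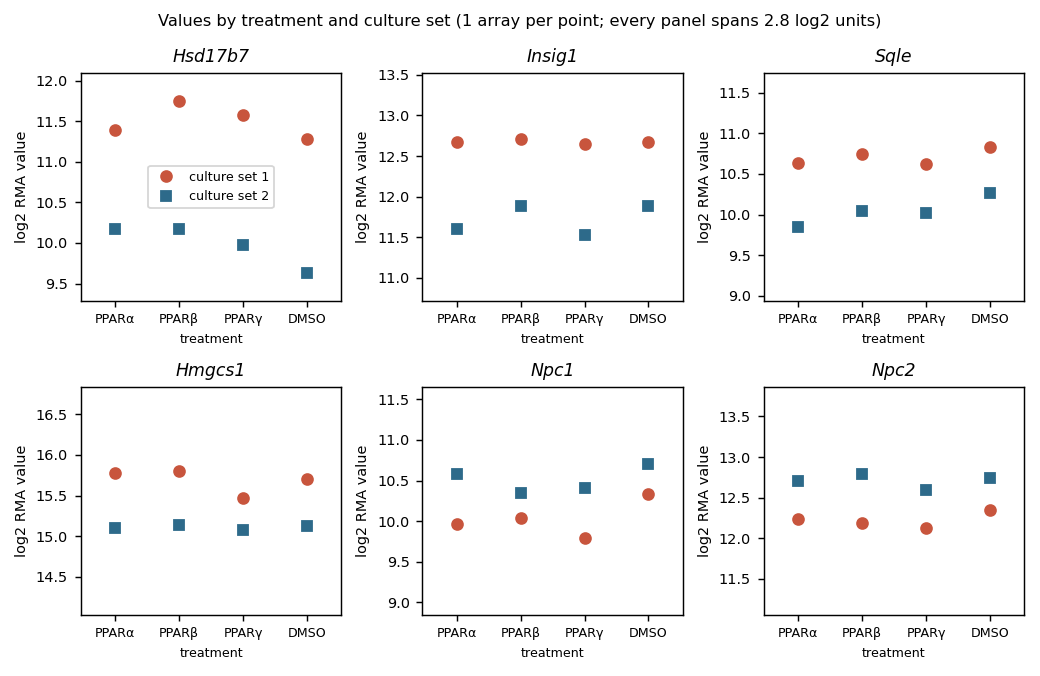
Each point is 1 array's log2 RMA value, by treatment, with circles for culture set 1 and squares for culture set 2, for 4 genes higher in set 1 and for Npc1 and Npc2. The 4 circles lie above the 4 squares for Hsd17b7, Insig1, Sqle and Hmgcs1 and below them for Npc1 and Npc2, and each panel spans the same height.

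Other genes of the pathway, taken from fixed lists, were read from the same comparison, in which 9.74% of all genes were higher in set 1 and 7.25% lower, 17.0% together. Of 9 further sterol synthesis genes, 4 were higher in set 1 and 1 lower (55.6% called). Among those higher, Cyb5r3, a reductase that passes electrons to cytochrome b5, averaged 14.52 in set 1 and 13.93 in set 2 (difference 0.59, limma adjusted p = 0.0313), and the cytochrome gene Cyb5b differed by 0.54. Lbr, a sterol reductase that also anchors chromatin to the nuclear envelope, averaged 14.88 in set 1 and 15.55 in set 2 (-0.67, limma adjusted p = 0.00649). Of 13 genes that use isoprenoids for prenylation, dolichol and quinones, 3 were higher (Rabggta 0.63, Pdss1 0.48, Nus1 0.41) and 1 lower (Dhdds -0.36), 30.8% called.

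Among 12 further genes of SREBP processing and sterol-driven protein turnover, 1 was called (8.33%). Tmem97, a sterol-responsive membrane protein that binds NPC1, averaged 12.87 in set 1 and 12.15 in set 2 (0.72, limma adjusted p = 0.00741). Of 17 further uptake, storage and transport genes, 1 was higher and 4 were lower (29.4% called). The lipoprotein receptor gene Lrp8 averaged 7.25 in set 1 and 6.12 in set 2 (1.13, limma adjusted p = 0.0124). Lower in set 1 were Scarb2 (-0.59), a lysosomal membrane protein, Soat2 (-0.56), the other sterol acyltransferase, Lipa (-0.50), the lysosomal lipase that frees cholesterol from its esters, and Lrpap1 (-0.44), a chaperone of lipoprotein receptors.

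Of 10 SREBP-driven fatty acid genes, 2 were called higher in set 1 and 0 were called lower. A share of 2 of 10 is near the 17.0% of all genes called. Fasn, the fatty acid synthase, averaged 12.39 in set 1 and 11.21 in set 2 (1.17, limma adjusted p = 0.00123), and Gpam differed by 0.43. Scd1 (0.29, limma adjusted p = 0.0962) and Acaca (0.24, limma adjusted p = 0.213) were not called.

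Genes that T cells raise on activation moved with the same split of the samples. Of 9 such genes, 7 were higher in set 1 and 0 lower (77.8% called, against 17.0% of all genes), with a median difference of 0.83. They included the costimulatory receptors Tnfrsf4 (1.65) and Tnfrsf9 (1.36), Cd69 (1.06), the amino acid transporter Slc7a5 (0.93), the transcription factor Myc (0.83) and the interleukin receptor chain Il2ra (0.82). The mean of the list lay between 14.62 and 14.82 on the arrays of set 1 and between 13.82 and 13.96 on those of set 2. Proliferation genes did not share this direction, with 0 of 10 called higher and 1 called lower (Top2a, -0.44). Their list means were 14.14 to 14.18 in set 1 and 14.23 to 14.35 in set 2.

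Cell type markers also differed. The 6 CD8 T cell markers had 0 called and list means of 15.69 to 15.83 in set 1 and 15.88 to 15.95 in set 2. Of 3 CD4 T cell markers tested, Cd4 averaged 8.81 in set 1 and 7.99 in set 2 (0.82, limma adjusted p = 0.0162) and Cd40lg 6.41 and 5.71 (0.70), while Zbtb7b differed by -0.05. The only NK cell marker tested, Eomes, which activated CD8 T cells also express, differed by 0.45 (limma adjusted p = 0.0334). No B cell, myeloid or neutrophil marker was called, and their list means overlapped between the sets. The part of activation genes or of other cells in the difference of the cholesterol genes was not tested.

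**Figure D4:**
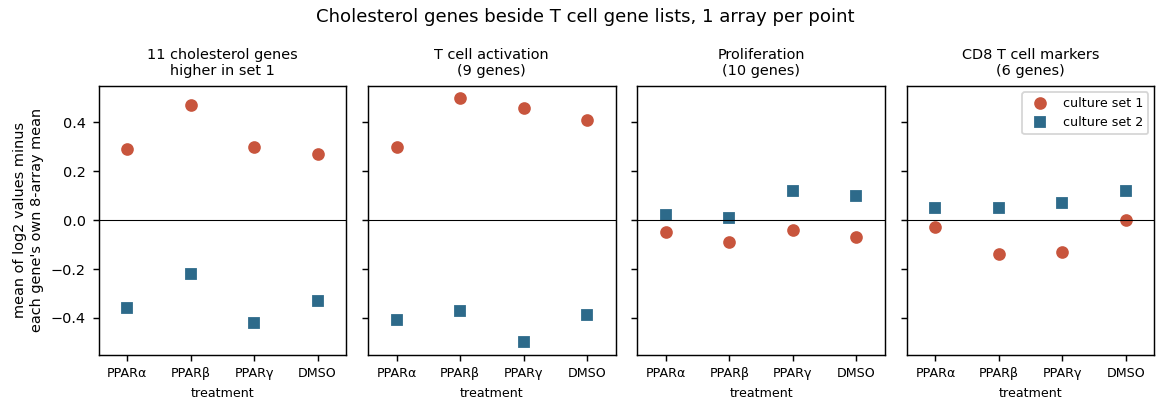
Each point is the mean, over the genes named above the panel, of the log2 value minus the gene's own mean over 8 arrays, by treatment, with circles for culture set 1 and squares for culture set 2. The 11 cholesterol genes chosen because they were higher in set 1 lie between 0.27 and 0.47 there and between -0.42 and -0.22 in set 2, beside activation, proliferation and CD8 T cell marker genes.

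The agonists were compared with DMSO and with each other to ask which transcripts each receptor's ligand changes in CD8+ T cells. The 3 comparisons with DMSO share the same 2 DMSO arrays, and the 6 pairs share arrays among them. limma called 0 of 26 members in every pair, without culture set as a block and with it. The shares of all genes called were 0% for PPARα agonist against DMSO, 0.00788% for PPARβ agonist against DMSO and 0% for PPARγ agonist against DMSO, and 0%, 0.0236% and 0% with the block. Between agonists they were 0.00788% for PPARβ against PPARα, 0.00788% for PPARβ against PPARγ and 0% for PPARγ against PPARα. With the block they were 0.0158%, 0.0158% and 0%. The moderated F test over the 4 treatments also called 0 members, against 0.00788% of genes (0.0158% with the block).

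Unadjusted p-values under 0.05 were reached in 1 of the 156 pairings of a member with a comparison, and in 3 with the block. Over all genes the share was 1.77% for PPARα agonist against DMSO, 2.35% for PPARβ agonist against DMSO and 2.17% for PPARγ agonist against DMSO, and 4.86%, 6.13% and 5.84% with the block. It was 2.32% for PPARβ against PPARα, 2.65% for PPARβ against PPARγ and 2.01% for PPARγ against PPARα, and 5.91%, 7.07% and 5.69% with the block. By the F test it was reached by 0 members with the block, against 6.10% of genes (1.78% without it).

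Changes of the members lay between -0.52 and 0.51 over the 6 pairs. With culture set as a block, the 95% interval of a member's change reached 0.30 to 0.46 to either side, so smaller changes than that are not set apart from 0 by these arrays. A change that misses the threshold does not show that treatments act alike. The median change of the 26 members was -0.04 with the PPARα agonist, 0.05 with the PPARβ agonist and -0.09 with the PPARγ agonist against DMSO, where all genes had -0.02, -0.01 and -0.01. Between agonists it was 0.10 for PPARβ over PPARα, 0.12 for PPARβ over PPARγ and 0.01 for PPARγ over PPARα, where all genes had 0.01, -0.00 and 0.00.

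Hsd17b7 had the largest change with the PPARβ agonist. It averaged 10.96 with the agonist and 10.45 with DMSO, a change of 0.51 (1.42-fold), by 0.47 in set 1 and 0.55 in set 2. The 95% interval with the block was 0.15 to 0.87, but the change did not pass in limma over all genes (adjusted p = 1 without the block and 0.759 with it). Without 1 array the change lay between -0.32 and 1.33, because such a fit sets arrays of different culture sets against each other, and it was below 0 without the PPARβ agonist array of set 1 (-0.28) or the DMSO array of set 2 (-0.32). With the PPARγ agonist it averaged 10.78, a change of 0.33 against DMSO (0.30 in set 1 and 0.35 in set 2, and -0.50 to 1.15 without 1 array), and with the PPARα agonist also 10.78, but by 0.11 in set 1 and 0.54 in set 2. DMSO was the lowest of the 4 treatments for this gene in both sets.

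Acat2 averaged 11.95 with the PPARβ agonist and 11.61 with DMSO, a change of 0.34 (0.37 in set 1 and 0.31 in set 2) that was not called (limma adjusted p = 0.815 with the block). Without 1 array it lay between 0.18 and 0.50. It was 0.18 without the PPARβ agonist array of set 1 and 0.21 without the DMSO array of set 2. Such fits set arrays of different culture sets against each other, here and for the genes below. Npc1 averaged 10.10 with the PPARγ agonist and 10.52 with DMSO, a change of -0.42 (-0.54 and -0.30 in the sets; limma adjusted p = 0.806 with the block). Without 1 array it lay between -0.73 and -0.11, at -0.73 and -0.11 without the PPARγ agonist array of set 2 or set 1 and at -0.23 without the DMSO array of set 2. The PPARβ agonist gave Npc1 a mean of 10.19, a change of -0.32 (-0.29 and -0.36). Npc1 was highest with DMSO in both sets.

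Pmvk (chromosome 3, 89454541 to 89469013), the phosphomevalonate kinase, had 9.33, 9.54 and 8.85 with PPARα, PPARβ and PPARγ agonist and 9.65 with DMSO in set 1, and 9.54, 9.28, 9.15 and 9.38 in set 2. The PPARγ agonist arrays were lowest in both sets. Its change was -0.52 for PPARγ agonist against DMSO (-0.81 and -0.23 in the sets; limma adjusted p = 0.806 with the block) and -0.43 against the PPARα agonist (-0.48 and -0.39; limma adjusted p = 0.868 with the block), the second at -0.59 to -0.28 without 1 array. In all, 5 of the 156 pairings reached 0.3 the same way in both sets, in Acat2, Hsd17b7 in 2 pairs, Npc1 and Pmvk. Against DMSO, 0 members did so with the PPARα agonist (4.79% of all genes), 2 with the PPARβ agonist (5.47%) and 2 with the PPARγ agonist (5.27%). Between agonists, 0 did for PPARβ over PPARα (5.55%), 0 for PPARβ over PPARγ (5.51%) and 1 for PPARγ over PPARα (5.15%).

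**Figure D5:**
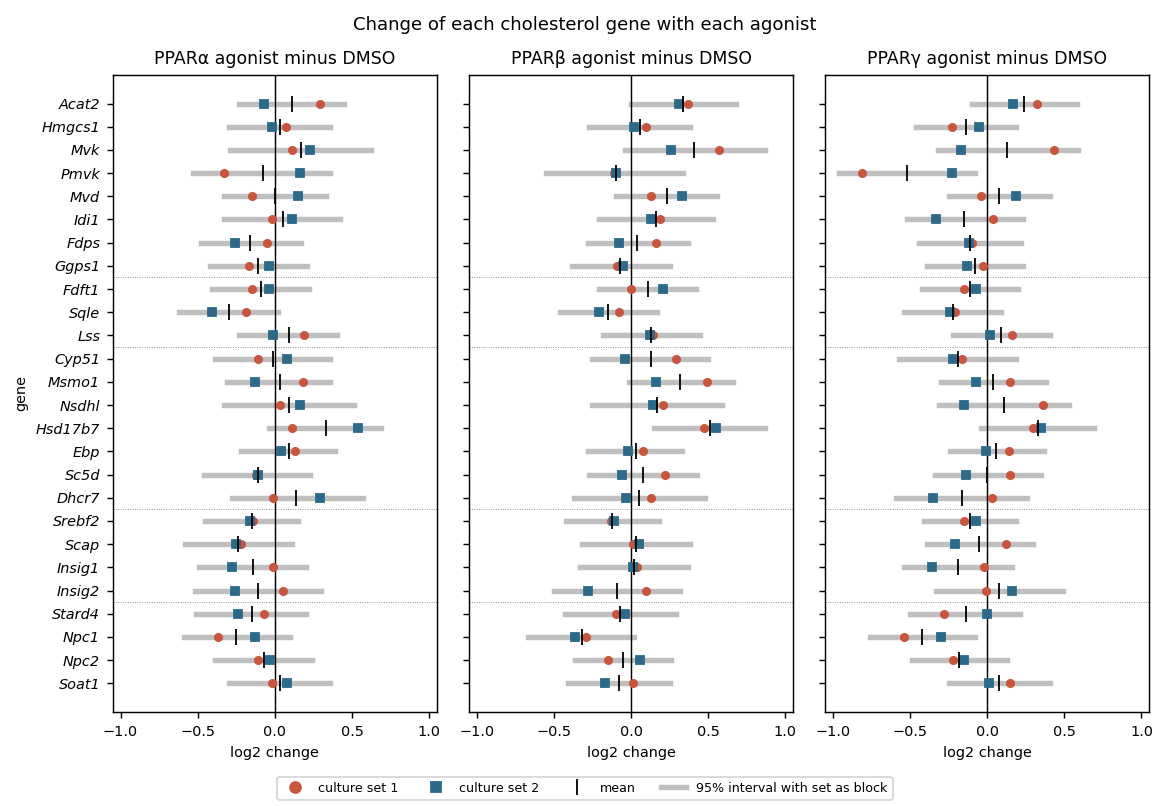
The log2 change of each cholesterol gene is shown for each agonist minus DMSO, with circles for culture set 1, squares for culture set 2, a tick for their mean and a grey bar for the 95% interval with culture set as a block. Hsd17b7 reaches 0.51 in the middle panel, and Pmvk and Npc1 reach -0.52 and -0.42 in the right panel, and no gene passed the test.

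By step of the pathway, the members lay on both sides of 0 in 23 of the 30 combinations of a step with a pair of treatments, and on 1 side in 7. With the PPARβ agonist against DMSO, all 7 late sterol enzymes had a mean change above 0 (0.03 to 0.51), 3 of them in both sets, and all 4 transport and esterification genes had one below 0 (-0.32 to -0.05), 2 of them in both sets, where 47.5% of all genes lay above 0 and 52.5% below. With the PPARα agonist against DMSO all 4 sensing genes had a mean change below 0 (-0.24 to -0.11), 3 of them in both sets, as had 54.2% of all genes. For PPARβ agonist over PPARα agonist all 4 sensing genes (0.02 to 0.26, 3 of them in both sets) and all 3 enzymes from squalene synthase to lanosterol synthase (0.04 to 0.20, 2 in both) lay above 0, as did 51.9% of all genes. For PPARβ agonist over PPARγ agonist all 8 early enzymes (0.01 to 0.41, 7 in both sets) and the same 3 squalene and lanosterol enzymes (0.04 to 0.21, 2 in both) lay above 0, as did 49.6% of all genes. None of these genes was called.

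Over all members, 16 lay above 0 and 2 below 0 in both sets for PPARβ agonist over PPARγ agonist, where 25.4% and 25.9% of all genes did. For PPARβ agonist over PPARα agonist these numbers were 14 and 1, where 27.1% and 24.5% of genes did. Against DMSO they were 4 and 11 for the PPARα agonist (23.3% and 30.2% of genes), 11 and 6 for the PPARβ agonist (23.7% and 26.7%) and 4 and 12 for the PPARγ agonist (24.5% and 26.6%), and for PPARγ agonist over PPARα agonist they were 3 and 6 (26.0% and 24.1%). Among the 4 treatments, the PPARβ agonist array was the highest for 13 of 26 members in set 1 and 12 in set 2, where 25.7% and 25.0% of all genes had it highest. The PPARγ agonist array was the lowest for 11 members in set 1 and 12 in set 2, where 22.4% and 30.5% of genes had it lowest. These counts carry no test, since members of a pathway are not independent of each other, and 1 array gives each treatment's value in a set.

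The further pathway lists had 0 genes called in any of the 6 pairs. The largest changes that went at least 0.3 the same way in both sets were in transport and turnover genes. Vldlr, a lipoprotein receptor gene, had a difference of 0.68 for PPARβ agonist over PPARα agonist and of -0.50 for PPARγ agonist over DMSO. Gramd1c, of a family of sterol transfer proteins, had -0.61 for PPARβ agonist over PPARγ agonist, and Erlin1, which encodes a sterol-binding membrane protein of the endoplasmic reticulum, had 0.52 for PPARβ agonist over DMSO. None of these passed. Gramd1c was near the array medians of 5.64 to 5.72, averaging 5.73 in set 1 and 5.41 in set 2, and Vldlr averaged 6.22 and 6.76. Markers of other cell types had differences of at least 0.3 the same way in both sets as well, none of them called. For PPARβ agonist over DMSO this was Cd4 (-0.51), while Cd79b (-0.34) fell just short of 0.3 in set 2. For PPARα agonist over DMSO these were Cd68 (-0.54) and Mpo (0.44), and for PPARγ agonist over DMSO Fcgr1 (-0.54). For PPARβ agonist over PPARγ agonist they were Cd4 (-0.71) and Zbtb7b (-0.59), and for PPARβ agonist over PPARα agonist Zbtb7b (-0.45). Zbtb7b was also near the array medians, averaging 5.72 in set 1 and 5.77 in set 2. The part of these markers in the changes of the members was not tested. The T cell activation list, which differed between the culture sets, had median changes of -0.04, 0.07 and -0.04 for the PPARα, PPARβ and PPARγ agonists over DMSO.

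The 2 shared clusters were read apart from the members, since their signal cannot be given to 1 gene. The cluster of Tm7sf2 and Vps51 (chromosome 19, 6062821 to 6080324) had 7.17, 7.28 and 7.16 with PPARα, PPARβ and PPARγ agonist and 7.37 with DMSO in set 1, and 7.46, 6.99, 7.32 and 7.25 in set 2. The cluster of Srebf1 and Mir6922 (chromosome 11, 60199084 to 60222581) had 7.17, 7.57, 7.43 and 7.51 in set 1 and 7.82, 7.50, 7.71 and 7.61 in set 2. The sets overlapped in both clusters.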

How the data were processed

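RNA of 8 samples was measured on 1 array each, labelled from 100 ng of total RNA, per the labels. The authors deposited RMA values on the log2 scale, per the labels and the submitters' processing notes. The labels call 1 sample's values gene-level and those of the other seven exon-level, but all 8 columns hold the same clusters. RMA removes a change shared by most transcripts. A deposited linear intensity column gave the same values to 1.5e-06 on the log2 scale and was not tested. Annotation and coordinates are on mm10, per the file headers. The scaling behind array maxima of 19.01 to 19.16 is not stated in the sources used here. The number of arrays, not depth, limits the precision.

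Of 22206 clusters, 21371 name 1 gene. Of these, 20395 matched a RefSeq table of GRCm38.p6 by entrez ID and 899 symbols were updated. The brightest cluster per gene was kept, and genes with a mean of at least 4.89, the 40th percentile, were tested. The 4 group means were fitted with limma 3.58.1 in R 4.3.3 (4 residual and 3.754 prior degrees of freedom), two-sided, with Benjamini-Hochberg adjustment and a threshold of 0.05. A second fit held culture set as a block (3 residual and 4.264 prior degrees of freedom), which also gave the difference between sets. The pairing comes from the titles. Deviations of the groups correlated at 0.496 to 0.55 within sets in all 6 pairs of groups. Fits were tested on simulated data. Tables and plots used matplotlib 3.10.9, numpy 2.4.6 and pandas 2.3.3 under Python 3.11.15.

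The members and lists were chosen with earlier results of these data known. Full values are given for called members (up to 12 by size), for members whose change was at least 0.3 the same way in both sets (up to 4 per direction and pair) and for the member with the highest level of each step. Alternatives changed the block, variance model, filter, scaling, source of values, clusters and arrays.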

Additional observations from a re-analysis of the deposited data

How the results depend on the processing

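No alternative called a member in a treatment pair, and none turned the difference between sets of the 14 members called. Hsd17b7 turned without 1 array, to -0.28 (without the PPARβ agonist array of set 1) and -0.32 (without the DMSO array of set 2) for PPARβ over DMSO (range -0.32 to 1.33), and to -0.47 (without the PPARγ agonist array of set 1) and -0.50 (without the DMSO array of set 2) for PPARγ over DMSO (range -0.50 to 1.15), since such fits compare different sets. With culture set as a replicate block, genes called became 3 for PPARβ agonist over DMSO, 2 for PPARβ over PPARα, 2 for PPARβ over PPARγ and 2 over the 4 treatments, and with a variance trend and robust variances as well 10, 11, 11 and 15, and 2 for PPARγ agonist over DMSO. The filter at the 60th percentile left 0 in these 4 comparisons, since the 1 gene called lies below it. Leaving out 1 array at a time gave 0 to 1 for PPARβ over DMSO, 0 to 0 for PPARβ over PPARα, 0 to 2 for PPARβ over PPARγ and 0 to 1 over the 4 treatments. Between the sets, genes called were 3238 with trend and robust variances and 1228 with no filter (1053 to 1328 without 1 array), and members called were 9 with no filter (7 to 9 without 1 array). The members lost with no filter were Acat2, Ebp, Fdft1, Npc1 and Sc5d. Trend and robust variances added Dhcr7 and Scap, and the filter at the 60th percentile added Dhcr7. Without 1 array the median change of the members ranged from -0.21 to 0.06 for PPARα over DMSO, -0.10 to 0.23 for PPARβ over DMSO, -0.20 to 0.12 for PPARγ over DMSO, -0.04 to 0.27 for PPARβ over PPARα, -0.06 to 0.32 for PPARβ over PPARγ and -0.19 to 0.18 for PPARγ over PPARα. A group left with 1 array is assumed to vary like the others. The treatment fits without 1 array held no block, so the ranges of these medians also carry the difference between the culture sets. With 2 arrays a group, the block changed no member's call.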
